A study of Mus musculus with 4 samples.

Results

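The SLAM family receptors Slamf1, Slamf6, Slamf7, Cd84, Ly9 and Cd48, the related receptor Cd2 and the adaptor gene Sh2d1a, which encodes SAP, were measured in mouse regulatory T cells. These 8 genes were chosen by name from the 50600 genes of the deposited count tables, by matching Ensembl identifiers to GENCODE symbols. The data are RNA sequencing counts of 4 libraries, labelled biological replicates 1 to 4 of a single group, and no treated, mutant or untreated group stands beside them. The cells were primary regulatory T cells of strain C57BL/6NJ, of unknown age and with sex not collected. The labels link a protocol for differentiating CD4+ T cells, and names inside the file headers describe them as activated, sorted and taken at 72 h, a detail found nowhere in the labels. All 4 libraries share 1 donor record, with no word on separate animals or cultures. Sex-linked transcripts, given with Sh2d1a, set replicates 1 and 2 apart from replicates 3 and 4, so the 4 libraries did not all come from the same animal. A p-value here reflects sample-to-sample spread alone, which within each of these pairs may be technical.

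SLAM receptors are cell surface proteins of the immunoglobulin superfamily that bind ligands on neighbouring blood cells. Most of them bind another copy of themselves, whereas CD48 is the partner of CD244 and, in the mouse, of CD2. Their cytoplasmic tails carry a tyrosine motif, the ITSM, which binds SAP when it is phosphorylated. SAP brings in the kinase Fyn, and in its absence the same motifs can bind inhibitory phosphatases. In T cells this pathway is known from invariant NKT cells, which need SAP to develop, and from follicular helper T cells, which need it for lasting contact with B cells.

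The docking motif itself is shown first because it separates the receptors whose tails hold it from the members that lack it. The last 100 codons of the main coding transcript of each gene were searched in frame for the codons of the ITSM, which is threonine, any residue, tyrosine, any residue, any residue, then valine or isoleucine. Sites were read from GENCODE M21 transcripts (mm10), 5′ to 3′, and the tyrosine codon is in capitals.
Ly9 site 1 (chr1:171593912-171593929, minus strand): actccaTATgataaagtg
Ly9 site 2 (chr1:171593438-171593455, minus strand): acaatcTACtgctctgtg
Slamf1 site 1 (chr1:171792339-171792356, plus strand): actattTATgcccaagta
Slamf1 site 2 (chr1:171799588-171799605, plus strand): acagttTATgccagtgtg
Slamf6 site 1 (chr1:171939437-171939454, plus strand): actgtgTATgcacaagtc
Slamf6 site 2 (chr1:171941664-171941681, plus strand): acaattTACtccatagtt
Cd84 site 1 (chr1:171884605-171884622, plus strand): acagtaTATgctgtagtt
Cd84 site 2 (chr1:171885601-171885618, plus strand): accattTATtcctcagtg
Slamf7 site 1 (chr1:171636327-171636344, minus strand): acatttTATtccactgtg

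Ly9, Slamf1, Slamf6 and Cd84 each held 2 such sites and Slamf7 held 1, while Cd2, Cd48 and Sh2d1a held none. Cd48 is anchored by a lipid and has no cytoplasmic tail, and the tail of CD2 signals through proline-rich stretches. Among 20871 protein-coding genes with a main coding transcript of at least 100 codons, 355 (1.70%) held at least 1 site and 10 (0.0479%) held 2 or more. Those 10 were these 4 receptors, Cd244a with 3 sites, the actin genes Acta1, Acta2, Actc1 and Actg2, and Asah2. A match is a description of the letters and does not show that a site is phosphorylated or bound.

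The libraries held 46044354, 72147632, 94983494 and 32648138 counts in replicates 1 to 4, so that 3 counts correspond to 0.0652, 0.0416, 0.0316 and 0.0919 CPM (counts scaled to 1000000 per library). Levels are given as TPM, in which each count is divided by the gene's exon length in the same files and scaled to a fixed total per library. The labelled cell type was checked against its markers. All 5 regulatory T cell markers (Foxp3, Il2ra, Ctla4, Tnfrsf18 and Ikzf2) and all 5 T cell markers reached 1 TPM in every library. Several SLAM genes are also known from B cells, NK cells, plasma cells, macrophages and platelets. Markers of these cells were mostly low: 1 of 5 B cell genes reached 1 TPM in every library, 1 of 5 myeloid genes, 1 of 4 NK genes, 1 of 3 plasma cell genes and 0 of 3 platelet genes. Those that did were Cd79b of B cells (4.51 to 6.68 TPM), Adgre1 of myeloid cells (1.19 to 2.79 TPM), Eomes of NK cells (1.58 to 2.67 TPM) and Sdc1 of plasma cells (3.76 to 5.59 TPM). Itga2b of platelets lay at 0.876 to 1.51 TPM. Summed levels ran from 5.32 to 7.34 TPM for the B cell list, 1.19 to 3.29 TPM for the myeloid list, 1.58 to 2.71 TPM for the NK list, 4.03 to 5.64 TPM for the plasma cell list and 0.876 to 1.51 TPM for the platelet list. Ncr1 and Klra8 of NK cells and Pf4 and Ppbp of platelets had no count in any library, and the B cell gene Ms4a1 had 0, 0, 3 and 1 counts in replicates 1 to 4. Of other T cell types, 0 of 2 NKT markers reached 1 TPM, with a summed level of 0.0262 to 0.101 TPM, and 1 of 2 CD8 markers did (Cd8b1, 12.3 to 16.6 TPM), while Cd8a stayed at 0 to 0.671 TPM. In such bulk samples, fewer cells of a type and less RNA per cell cannot be told apart.

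The members spanned levels of 0.362 to 949 TPM in the mean. Cd2 was far above the rest, Cd48 and Ly9 followed, and Sh2d1a, Slamf1, Cd84 and Slamf6 stood between 4.95 and 18.5 TPM in the mean. Slamf7 was the 1 member under 1 TPM. In all, 7 of 8 members (87.5%) reached 1 TPM in every library, against 10680 of 21764 protein-coding genes (49.1%). The median of the members' mean levels was 14.8 TPM, against 1.21 TPM over all protein-coding genes.

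Cd2 encodes an adhesion and costimulatory receptor of T and NK cells. It measured 898, 987, 971 and 940.0 TPM in replicates 1 to 4, a mean of 949 ± 39.1 TPM (SD, n = 4). The 4 libraries lay close together, and by mean level the gene ranked 112 among 21764 protein-coding genes. Cd2 (ENSMUSG00000027863.8) lies on the minus strand at chr3:101275899-101287939 in mm10, with 1741 bases in 4 merged exons, and held 16443 to 49892 counts. It took 72.7 ± 0.562% of the summed TPM of the 8 members.

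Cd48 encodes the lipid-anchored ligand of CD2. It measured 202, 233, 237 and 235 TPM in replicates 1 to 4, a mean of 227 ± 16.8 TPM (SD, n = 4), with replicate 1 below the other 3. Cd2 exceeded its ligand in every library, with ratios of 4.46, 4.24, 4.10 and 3.99 in replicates 1 to 4. Receptor and ligand were thus both among the higher genes, with Cd48 at rank 737. Cd48 (ENSMUSG00000015355.13, chr1:171682009-171705258, plus strand) has 1189 bases in 4 merged exons.

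Ly9 encodes CD229, a self-binding receptor with 2 docking sites. It measured 88.1, 90.5, 79.5 and 84.1 TPM in replicates 1 to 4, a mean of 85.6 ± 4.81 TPM (SD, n = 4). This was the most abundant of the 5 receptors with docking sites in every library. With the exon length of the files, Ly9 stood 3.30 ± 0.332 times as high as Slamf1, Slamf6, Cd84 and Slamf7 summed, which reached 26.1 ± 2.48 TPM. The size of this lead depends on the length used. With the length of the main coding transcript it was smaller, at a mean of 79.3 TPM for Ly9. Slamf1 then had 17.7 TPM, Slamf6 15.04 TPM and Cd84 12.9 TPM. Ly9 (ENSMUSG00000004707.14, chr1:171588624-171607410, minus strand) has 3307 bases in 11 merged exons.

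Slamf1 encodes CD150, the receptor that gave the family its name. It measured 11.1, 11.5, 10.5 and 11.3 TPM in replicates 1 to 4, a mean of 11.1 ± 0.449 TPM (SD, n = 4). Cd84 encodes a self-binding receptor of T cells, B cells and platelets, and measured 8.50, 11.1, 9.19 and 10.03 TPM, a mean of 9.72 ± 1.14 TPM. These neighbours in the order differed little: Slamf1 was above Cd84 in 4 of 4 libraries, by 0.344, 0.045, 0.172 and 0.154 on the log2(TPM + 1) scale. Slamf1 (ENSMUSG00000015316.11) lies at chr1:171767127-171801184 with 6156 bases in 7 merged exons, and Cd84 (ENSMUSG00000038147.13) at chr1:171839697-171890718 with 6272 bases in 9, both on the plus strand.

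Slamf6 encodes Ly108, a receptor known from follicular helper cells and from stem-like T cells in chronic infection. It measured 3.34 TPM in replicate 1 and 5.54, 4.86 and 6.07 TPM in replicates 2 to 4, a mean of 4.95 ± 1.18 TPM (SD, n = 4). Replicate 1 was the low library, and the coefficient of variation, 23.9%, was the widest of the 8 members. Slamf6 (ENSMUSG00000015314.10, chr1:171917515-171953170, plus strand) has 10832 bases in 11 merged exons. The mouse gene is known to make isoforms that differ in their docking sites, and gene counts do not separate them.

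Slamf7 encodes CRACC, known from NK cells and plasma cells. It measured 0.392, 0.390, 0.296 and 0.370 TPM in replicates 1 to 4, a mean of 0.362 ± 0.0450 TPM (SD, n = 4), from 26, 39, 40 and 17 counts. All 4 libraries lay above the level of 3 counts and below 1 TPM. Slamf7 (ENSMUSG00000038179.13, chr1:171632403-171653035, minus strand) lies between Ly9 and Cd48, so the lowest member is next to a pair of the higher ones.

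Sh2d1a encodes SAP. It measured 16.1, 18.3, 19.3 and 20.4 TPM in replicates 1 to 4, a mean of 18.5 ± 1.82 TPM (SD, n = 4). Relative to the 5 receptors with docking sites, summed, it stood at 0.145, 0.154, 0.185 and 0.182 in replicates 1 to 4, and 1 receptor, Ly9, made up most of that sum. Sh2d1a (ENSMUSG00000005696.11, chrX:42502453-42529330, plus strand) has 5505 bases in 6 merged exons, of which 1465 lie opposite exons of Tenm1. Counting was strand-specific per the file headers, so reads of that gene were kept apart. The gene is X-linked, and the libraries differ in sex-linked transcripts: Xist, which is transcribed from an inactive X chromosome, measured 312, 331, 0.539 and 2.38 TPM, and Y-linked Ddx3y 0.0664, 0.0264, 26.0 and 31.2 TPM in replicates 1 to 4. Sh2d1a was lower in both Xist-high libraries than in both Xist-low ones; the part of sex in this was not tested.

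**Figure D1:**
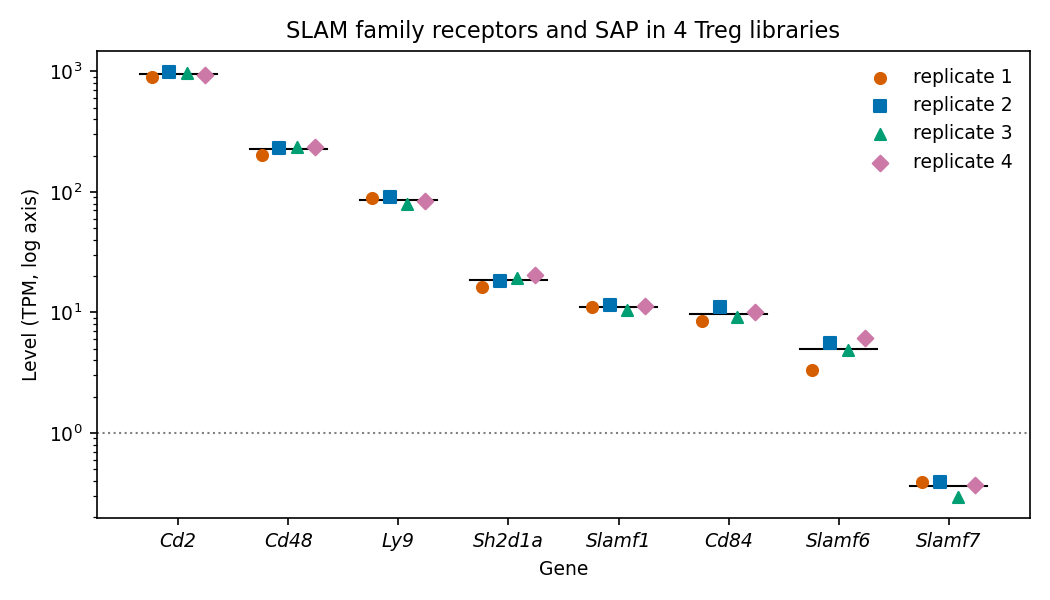
Level of each member in TPM on a log axis, with 1 point per library and a line at the mean of the 4 libraries; the dotted line marks 1 TPM. Cd2 lies between 898 and 987 TPM, Slamf7 lies below 1 TPM in every library, and Slamf6 is lowest in replicate 1 at 3.34 TPM.

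The order by mean level was Cd2, Cd48, Ly9, Sh2d1a, Slamf1, Cd84, Slamf6 and Slamf7. Each of the 7 neighbouring pairs kept its order in 4 of 4 libraries. The order was taken from the means of the same libraries, so this describes them and is no independent test. Flipping signs in an exact permutation test (two-sided) gave p = 0.125 for every pair, the smallest that 4 libraries allow, and so separates no pair at 0.05. The mean difference on the log2(TPM + 1) scale exceeded its SD for each pair, and was smallest between Slamf1 and Cd84 (0.18 ± 0.12, SD, n = 4). Next came Sh2d1a over Slamf1 at 0.69 ± 0.15 and Cd84 over Slamf6 at 0.87 ± 0.20. Differences between genes also carry how well each transcript is captured.

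Levels per length depend on the length used, most of all for Sh2d1a and Slamf6. The files give the length of all annotated exons merged, which is 4.50 times the main coding transcript for Sh2d1a and 4.36 times for Slamf6, against 1.00 times for Cd48. New lengths also rescale the TPM of every gene, so Cd48 still moved, from a mean of 227 to 158 TPM. All 8 members moved by at least 1 SD. With the length of the main coding transcript, a choice made after seeing the data, Sh2d1a measured 51.0, 57.6, 60.5 and 63.6 TPM in replicates 1 to 4 and stood at 0.466 ± 0.0496 of the 5 receptors summed. Slamf6 then measured 10.2, 16.9, 14.7 and 18.3 TPM and exceeded Cd84 in 3 of 4 libraries, so the order of Slamf6 and Cd84 turned. Slamf1 over Slamf6 and Slamf6 over Cd84, at 0.25 ± 0.34 and 0.18 ± 0.24 (log2, SD, n = 4), were both within their spread. Without any length correction, in log2(CPM + 1), Cd48 minus Ly9 turned to -0.071 ± 0.16 (SD, n = 4). With the transcript length, Cd2, Cd48, Ly9, Sh2d1a and Slamf1 kept ranks 1 to 5, and Slamf7 stayed the lowest at 0.290 TPM.

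**Figure D2:**
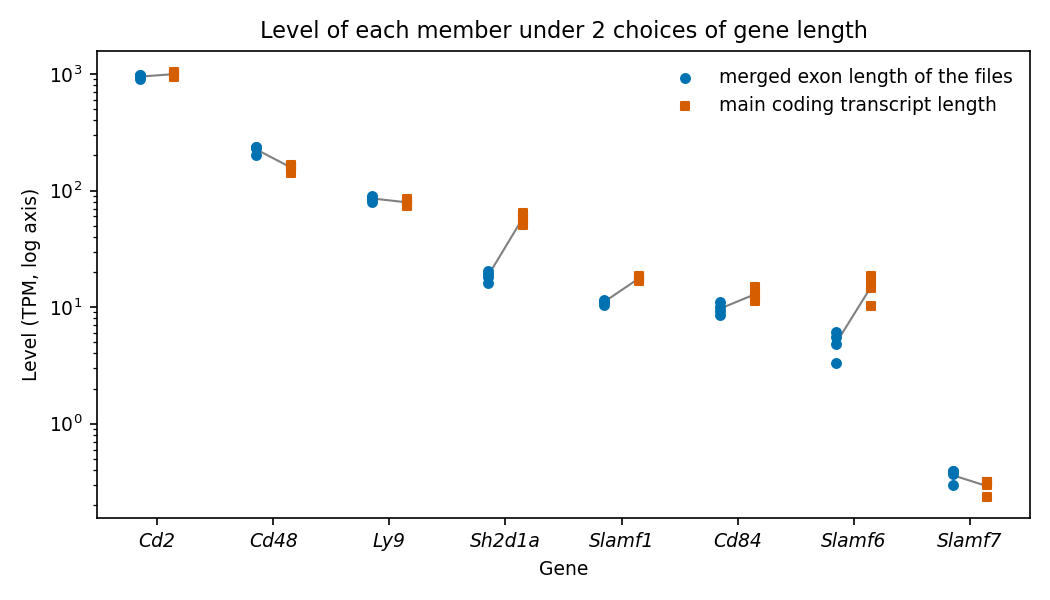
Level of each member in TPM on a log axis with the merged exon length of the files (circles) and with the length of the main coding transcript (squares); points are the 4 libraries and the grey line joins the means. Sh2d1a has means of 18.5 TPM with merged exons and 58.1 TPM with the transcript length, and Slamf6 has 4.95 and 15.04 TPM.

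No member was called as spreading between libraries beyond the trend of genes of like abundance. An edgeR fit of deviance against that trend called 0 of 8 members at an adjusted p under 0.05, against 51 of 13478 genes (0.378%). The count over all genes was 17, 56, 23 and 33 without replicates 1 to 4 in turn, and 15 (0.111%) in limma. It was 67 of 11953 genes with a filter at a mean of 1 CPM, where Slamf7 was not tested. With a filter at 1 count it was 38 of 22353 genes. No member was called in any of these. In both tools 1 of 8 members had an unadjusted p under 0.05, against 805 of 13478 genes in edgeR and 648 of 13478 in limma. That member was Slamf6 (edgeR, unadjusted p = 0.00972, adjusted p = 0.478), whose adjusted p ran from 0.385 to 1.00 over the alternatives. The other 7 had an edgeR adjusted p of 1.00. Among members at 1 TPM or more the median coefficient of variation of TPM was 7.42% (7 genes), against 8.30% over 10680 protein-coding genes at that level.

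On the log2 CPM scale, replicate 1 was the lowest library for 5 of 8 members, Cd2, Cd48, Sh2d1a, Cd84 and Slamf6. It was the highest for Ly9 and Slamf7, though in TPM Ly9 was highest in replicate 2. The share of all genes lowest in replicate 1 was not counted, so 5 of 8 is not read as a trait of the members. Slamf6 deviated in replicate 1 from its own mean by -0.51 (log2 CPM), and by 0.17, 0.02 and 0.32 in replicates 2 to 4. Without replicates 1 to 4 in turn, the unadjusted edgeR p of Slamf6 was 0.392, 0.00473, 0.00634 and 0.0388. Replicate 1 held its most extreme value, so a higher p without that library follows from the choice and is no separate support. Replicate 1 also stood apart in other RNA: Malat1 measured 131 TPM there against 55.2, 44.1 and 42.5 TPM in the others, and Gm42418, which carries ribosomal RNA sequence, 11891 TPM against 4335, 2980.4 and 1555 TPM. The part of that difference in the low Slamf6 value was not tested. Slamf6 has long merged exons, and the 2408 longest protein-coding genes at a mean of 5 CPM or more, with 6650 bases or more, had median deviations of -0.02, 0.06, -0.02 and -0.0028 in replicates 1 to 4 (log2 CPM). The part of length in the Slamf6 values was not tested.

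**Figure D3:**
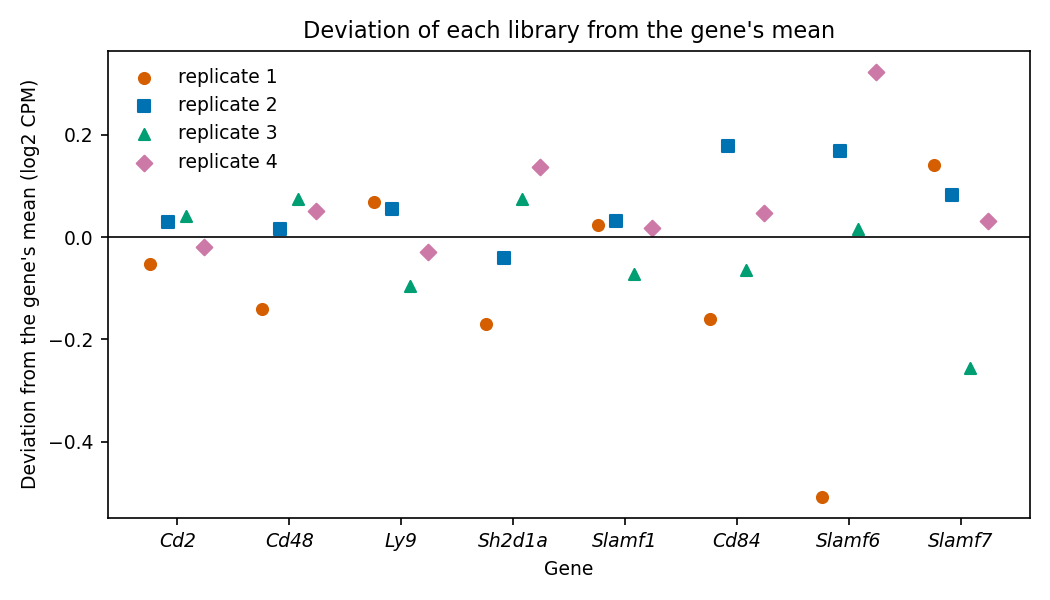
Deviation of each library from the gene's own mean in log2 CPM (prior count 2), for the 8 members in the order of their levels. Slamf6 in replicate 1, at -0.51, is the point farthest from 0, and the Slamf1 points lie between -0.07 and 0.03.

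The library pattern of Slamf6 was set beside those of other genes. Over 4 libraries, the protein-coding genes nearest to it by the root mean square difference of deviations were Slc8b1, a mitochondrial cation exchanger (0.0237, log2), Trim12a (0.0365) and Ppp3ca, the catalytic subunit of calcineurin (0.0393), out of 1542 genes at a mean of 5 CPM or more with at least 50% of its range. All 3 were lowest in replicate 1, at 7.26, 3.20 and 3.76 TPM, which follows from how they were picked. None varied beyond the trend (edgeR, adjusted p = 0.893, 1.00 and 0.548). With so many candidates and 4 libraries, near matches of this kind say nothing of shared function.

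The 6 chromosome 1 members lie within 365 kb, and their levels differed widely along it. From left to right their means were 85.6 TPM for Ly9, 0.362 for Slamf7, 227 for Cd48, 11.1 for Slamf1, 9.72 for Cd84 and 4.95 for Slamf6. Of the 14 other protein-coding genes within 200 kb of the members, 9 reached 1 TPM in every library (49.1% over all protein-coding genes). On the left these were Arhgap30 (121 TPM), Usf1 (59.8 TPM), Tstd1 (8.31 TPM) and Alyref2 (6.25 TPM). On the right they were Vangl2 (1.39 TPM), Ncstn (89.9 TPM), Copa (124 TPM), Pex19 (67.4 TPM) and Dcaf8 (48.3 TPM). No neighbour named here varied beyond the trend (edgeR, lowest adjusted p 1.00), against 51 of all 13478 genes tested (0.378%).

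**Figure D4:**
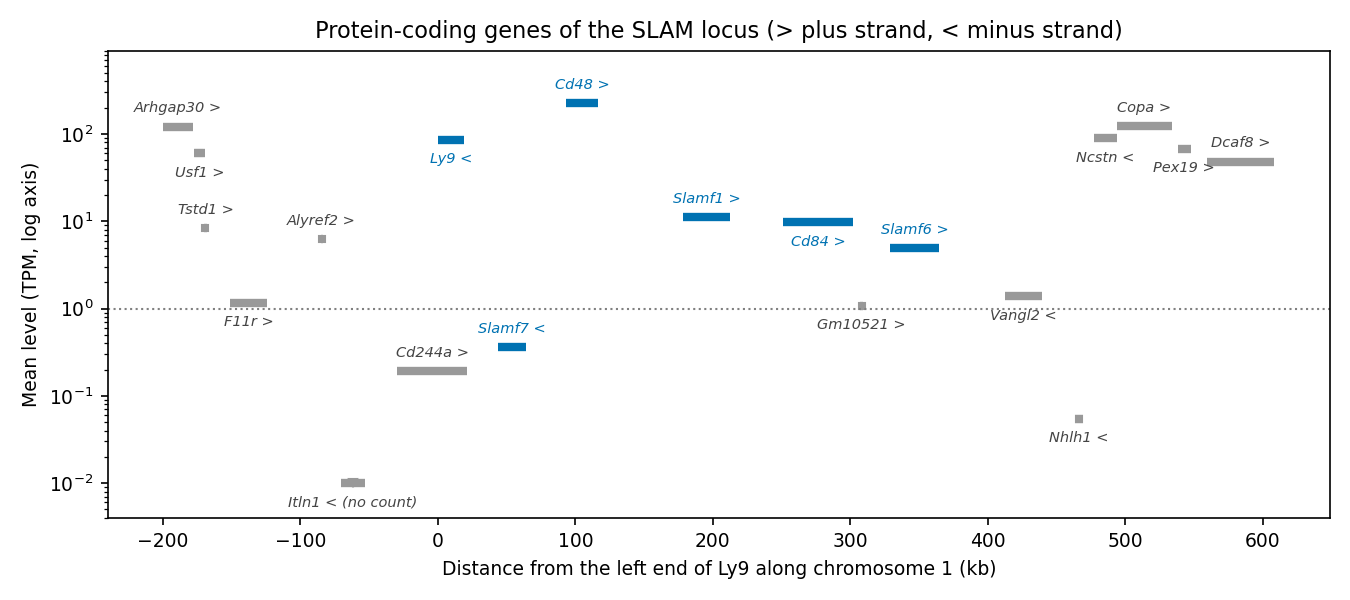
Protein-coding genes within 200 kb of the SLAM members on chromosome 1, drawn to scale by distance from the left end of Ly9 in kb, at their mean level in TPM on a log axis; members are blue, other genes grey, and the dotted line marks 1 TPM. Slamf7, at 0.362 TPM, lies between Ly9 at 85.6 TPM and Cd48 at 227 TPM; Itln1 had no count and is drawn at the foot of the plot, and the short genes are marked by squares.

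The rest of the family and the relatives of SAP were mostly near or at 0 counts. Cd244a, the other receptor for CD48, had 7, 10, 51 and 11 counts in replicates 1 to 4 (0.0992, 0.0938, 0.354 and 0.225 TPM), so the highly expressed Cd48 stood beside abundant Cd2 and little Cd244a. Slamf8, known from macrophages, had 3 and 11 counts in replicates 1 and 2 and none in replicates 3 and 4. Slamf9, whose tail holds no docking site, was the exception, at 11.6, 9.79, 8.08 and 11.4 TPM, a mean of 10.2 ± 1.65 TPM (SD, n = 4). Sh2d1b1 and Sh2d1b2, which encode adaptors of the SAP type known from NK cells, had 0 counts in every library, which allows up to 0.0316 CPM in the deepest library, for counting error only. Sh2d1a was therefore the 1 gene of the adaptor family with counts.

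Partners of SAP and of the receptor tails were broadly expressed. All 10 signalling partners reached 1 TPM in every library, against 49.1% of protein-coding genes. Their median was 54.1 TPM, against 1.21 TPM over all protein-coding genes. These lists were chosen with earlier results of these data known, so such counts are a description only. Lck, the Src family kinase of T cell receptor signalling, stood at 778 ± 15.4 TPM, the exchange factor Vav1 at 185 ± 4.71 TPM, and Fyn, the kinase that SAP binds, at 148 ± 12.2 TPM (SD, n = 4). The protein kinase C theta gene Prkcq (37.5 ± 4.28 TPM) and Bcl10 (37.0 ± 2.34 TPM), which link this pathway to NF-kappaB, were lower, and Arhgef7, an exchange factor reported to bind SAP, was lowest at 14.4 ± 1.15 TPM. Fyn measured 131, 160, 151 and 151 TPM in replicates 1 to 4, so that it was above Sh2d1a in every library.

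The phosphatases and the kinase that act as brakes on this pathway were also present, with a median of 242 TPM. In this list 4 of 4 reached 1 TPM in every library, against 49.1% of protein-coding genes. Ptpn6, which encodes SHP-1, stood at 455 ± 16.2 TPM, the inhibitory kinase gene Csk at 394 ± 8.29 TPM, the lipid phosphatase gene Inpp5d at 91.1 ± 1.03 TPM and Ptpn11 at 87.8 ± 3.82 TPM (SD, n = 4). Partners of the CD2 tail were present in 4 of 4 cases: Cd2bp2 at 135 ± 3.70 TPM, Pstpip1 at 72.1 ± 4.36 TPM, Cd2ap at 48.7 ± 6.03 TPM and Sh3kbp1 at 40.4 ± 5.32 TPM. The same held for the endosomal partners reported for SLAMF1 in macrophages, led by Becn1 at 67.4 ± 1.30 TPM, with Uvrag lowest at 12.7 ± 1.36 TPM. None of these 22 genes was called as varying between libraries (edgeR, adjusted p under 0.05), against 51 of all 13478 genes tested (0.378%). With so low a share over all genes, this does not set the partners apart.

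**Figure D5:**
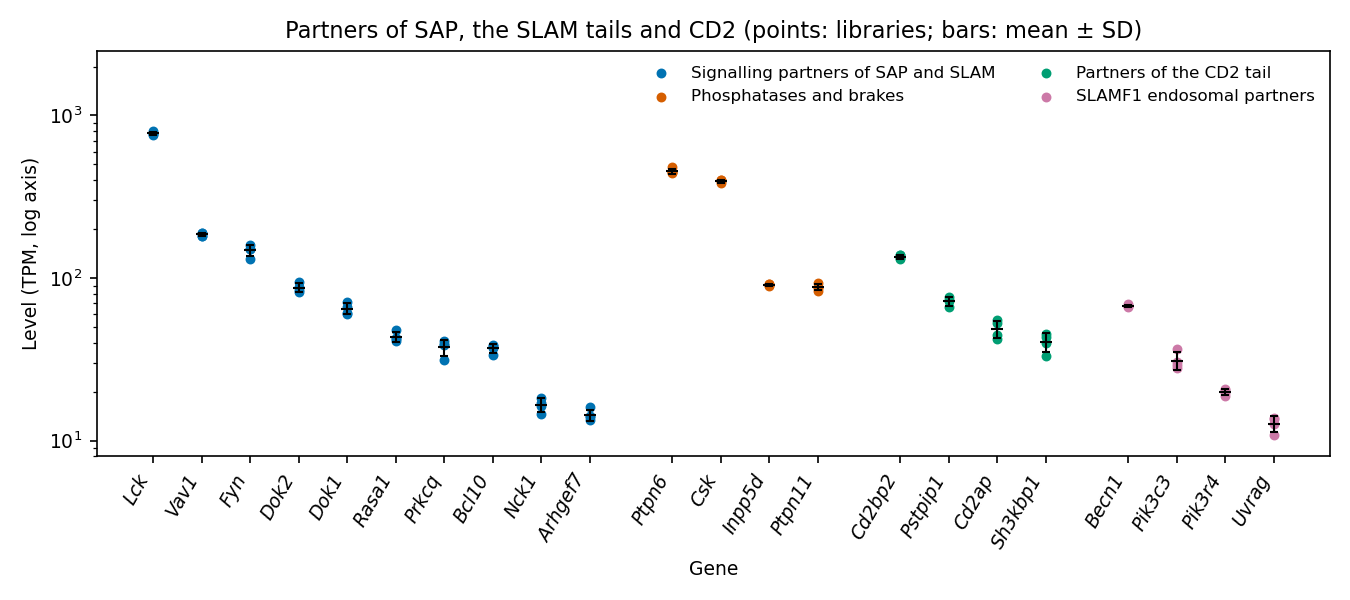
Level in TPM on a log axis of the 22 partner genes in 4 lists; coloured points are the 4 libraries and black bars the mean ± SD. Lck is highest at 778 TPM, and all genes lie above 10 TPM in every library.

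Genes of the T cell types that need SAP were in part expressed and in part near 0. Pdcd1 (238 ± 3.73 TPM), Icos (90.8 ± 8.72 TPM), Cxcr5 (21.8 ± 3.18 TPM) and Bcl6 (5.18 ± 0.558 TPM) reached 1 TPM in every library. These were 4 of 7 in the list, against 49.1% of protein-coding genes. Zbtb16, the factor of invariant NKT cells, had 2, 9, 2 and 0 counts in replicates 1 to 4, Il21 had 1 count in all and Il4 had none. As a scale from the same libraries, Cd3e stood at 173 ± 11.6 TPM, Cd28 at 41.9 ± 7.22 TPM, Foxp3 at 463 ± 25.4 TPM, Cd5 at 659 ± 16.4 TPM, Cd4 at 557 ± 21.8 TPM, Cd6 at 336 ± 8.54 TPM and Il2ra at 1769 ± 120.3 TPM. Cd2 exceeded 6 of these 7 genes in every library and lay below Il2ra in every library, while Slamf1, Cd84 and Slamf6 lay below all 7.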

How the data were processed

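The authors deposited raw counts of read pairs per gene, 1 table per library, which featureCounts 1.4.6-p4 made, per the file headers, from reads aligned by STAR. Pairs were counted with both ends mapped, on the reverse strand (setting 2), over exons grouped by gene in GENCODE M13, without multimapping or overlapping reads; the labels name mm10. The labels call the assay total RNA-seq but link a protocol for poly(A)+ RNA, so which RNA was selected is open. How reads were aligned beyond this is not stated. Symbols came from GENCODE M21, which matched 50376 of 50600 identifiers.

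TPM and CPM were computed here. Spread between libraries was tested in edgeR 4.0.16 (R 4.3.3) with filterByExpr (minimum count 10), TMM scaling, an intercept-only model and trended dispersion, by a one-sided test of goodness of fit with Benjamini-Hochberg adjustment over 13478 genes; the test was checked on simulated data. Alternatives were DESeq2 1.42.0 size factors, other filters, limma 3.58.1, each library left out, other units and pseudocounts, and transcript length. Named genes were the 8 members, their fixed lists, expressed neighbours within 200 kb and the 3 nearest patterns. The members and lists were chosen with earlier results of these data known. Floors of 3 counts cover counting error only.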

Additional observations from a re-analysis of the deposited data

Results flagged for a closer look

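Of 50 values examined (the levels of members and listed genes at 1 TPM or more, their sums and their ratios), 3 had a single library at a distance from the rest that passes Dixon's criterion, which chance passes in about 1 of 20 values. Cd48 was lowest in replicate 1, at 202 TPM. Ptpn6 was highest in replicate 4, at 479 TPM. Icos was highest in replicate 2, at 104 TPM. The edgeR test called none of the 3, with adjusted p-values of 1.00.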

How the results depend on the processing

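With 1 library left out at a time, the number of genes varying beyond the trend ran from 17 (without replicate 1) to 56 (without replicate 2). It was 23 without replicate 3 and 33 without replicate 4. Filters at a mean of 1 CPM and at 1 count gave 67 and 38, and limma called 15. The cause was not tested. The count of members called was 0 under all 8 alternatives, though Slamf7 was not tested with a filter at a mean of 1 CPM. Member levels stayed within 1 SD under TMM scaling, for all 8 genes. Leaving out 1 of 4 libraries cannot move a mean by 1 SD, so that alternative could not have shown a change. The transcript length, added after seeing the data, gave means of 998 TPM for Cd2, 158 for Cd48, 79.3 for Ly9, 58.1 for Sh2d1a, 17.7 for Slamf1, 12.9 for Cd84, 15.04 for Slamf6 and 0.290 for Slamf7, and turned Cd84 minus Slamf6 to -0.18 (log2). Without length correction, in CPM, Cd48 minus Ly9 turned to -0.071 (log2). The other 6 pairs kept their direction in each case. All 7 also did so with another pseudocount or with a library left out, but that was certain in advance. Each pair had the same sign in all 4 libraries, and a pseudocount cannot change a sign. Depth limits Slamf7 most: at 17 to 40 counts the trend allows a biological coefficient of variation of 34.8%, to which counting error adds. The 4 libraries form 1 group, so no contrast between conditions could be made.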
